A study of Homo sapiens with 6 samples.

Results

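The genes described here are 10 chemokine genes that epithelial cells can express: CXCL1, CXCL2, CXCL3, CXCL5, IL8, CCL2, CCL5, CCL20, CXCL10 and CXCL11. They were found by exact symbol in the processed RNA-seq table, where IL8 is listed as CXCL8, and each of the 10 had 1 row. The table names 26822 genes in all. RNA was sequenced from MCF10A cells, an established line of non-tumorigenic human breast epithelial cells, after transfection for 72 hours with siRNAs at 30 nM. One group of 3 samples received non-targeting siRNAs (siNT) and the other group of 3 samples received siRNAs against PAX9 (siPAX9), a transcription factor of the paired box family. Both groups were grown in DMEM-F12 medium with horse serum, epidermal growth factor, hydrocortisone, cholera toxin and insulin.

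Chemokines are small secreted proteins that attract leukocytes by binding receptors with 7 membrane-spanning segments. Those with an ELR motif before a CXC cysteine pair (CXCL1, CXCL2, CXCL3, CXCL5 and IL8 here) bind CXCR2, and IL8 also binds CXCR1, and they attract neutrophils. CCL2 attracts monocytes, CCL5 attracts T cells and monocytes, and CCL20 attracts CCR6-bearing cells. CXCL10 and CXCL11 are induced by interferons and bind CXCR3. In epithelial cells, transcription of the ELR chemokines and CCL20 is typically driven by NF-κB after interleukin 1 or tumour necrosis factor, and the mRNAs are short-lived.

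The table holds 1 FPKM for each group (fragments per kilobase of a transcript, adjusted for the number mapped), which the authors made from the 3 samples of that group. There is no value per sample, so no replicate error could be computed, no test was run, and whether the samples of the groups overlapped is unknown. How many reads stand behind a value is unknown too. Every difference below is therefore a difference between 2 pooled values. A gene was taken as expressed at a mean FPKM of at least 1, and a difference was counted at 2-fold or more in either direction. Of the 13264 named genes expressed at that level, 6.9% (915 genes) were lower in siPAX9 by 2-fold or more and 6.82% (904 genes) were higher, 13.7% in all. Their median log2 ratio of siPAX9 to siNT was -0.07, and the middle 50% of them lay between -0.41 and 0.29.

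The labels and the targeted gene were checked first. PAX9 measured 2.80 FPKM in siNT and 0.325 FPKM in siPAX9, a log2 ratio of -3.10; the locus the table gives for it also spans a neighbouring gene, SLC25A21. Epithelial markers were present in both groups: the basal keratin KRT5 measured 1558 FPKM in siNT and 1807 FPKM in siPAX9, and all 10 epithelial markers were expressed. CDH1, which encodes E-cadherin, measured 45.3 FPKM in siNT and 124 FPKM in siPAX9, EPCAM had 34.3 and 16.7, and the other 8 were within 2-fold. EPCAM was short of 2-fold with 1 added to both values and after centring on the median of expressed genes. Among the 10 leukocyte markers, CD3E and CD3D were listed at 0 in both groups and PTPRC, which encodes CD45, measured 0.017 FPKM in siNT and 0.092 FPKM in siPAX9. CD14 and CSF1R were the 2 leukocyte markers expressed, and the summed level of the list was 15.6 FPKM in siNT and 62.2 FPKM in siPAX9, nearly all of it CD14 (14.4 and 56.5). Of the 7 fibroblast markers, COL3A1 was listed at 0 in both groups, COL1A1 (0.454 FPKM in siNT and 4.13 FPKM in siPAX9) and DCN (5.85 and 37.9) were expressed, and the summed level of the list was 6.40 FPKM in siNT and 42.2 FPKM in siPAX9. Of the 5 endothelial markers, PECAM1 (2.58 FPKM in siNT and 0.495 FPKM in siPAX9) and KDR (0.798 and 1.94) were expressed, and the summed level was 3.95 FPKM in siNT and 2.49 FPKM in siPAX9. The part of these genes in the chemokine levels was not tested. In bulk RNA, fewer cells of a type and less RNA per cell cannot be told apart.

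Of the 10 chemokine genes, 7 lie on chromosome 4, CCL2 and CCL5 lie on chromosome 17, and CCL20 lies on chromosome 2. IL8, CXCL1, CXCL5, CXCL3 and CXCL2 follow each other in that order within 358.8 kb of chromosome 4. CXCL1, CXCL2 and CXCL3 are close paralogs, so the sequence in front of each is shown here together with that of IL8. RefSeq promoters on GRCh38.p14, from 250 bases before to 50 bases after the start, were found for 8 of the 10 genes, and not for CCL2 and CCL5. The stretches that end at the base before the start are chr4:73869283-73869392 (plus strand) for CXCL1, chr4:74099196-74099305 (minus strand) for CXCL2, chr4:74038690-74038799 (minus strand) for CXCL3 and chr4:73740429-73740568 (plus strand) for IL8. Each is printed 5′ to 3′ on the strand of its gene, and the capitals mark the κB core GGAATTTCC and, in IL8, the AP-1 motif TGACTCA.
CXCL1: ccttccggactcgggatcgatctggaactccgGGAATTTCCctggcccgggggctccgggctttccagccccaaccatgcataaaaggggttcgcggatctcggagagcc
CXCL2: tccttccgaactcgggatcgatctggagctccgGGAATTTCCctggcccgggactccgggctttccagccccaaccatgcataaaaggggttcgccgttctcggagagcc
CXCL3: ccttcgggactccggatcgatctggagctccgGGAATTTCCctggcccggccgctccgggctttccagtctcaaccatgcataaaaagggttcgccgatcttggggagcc
IL8: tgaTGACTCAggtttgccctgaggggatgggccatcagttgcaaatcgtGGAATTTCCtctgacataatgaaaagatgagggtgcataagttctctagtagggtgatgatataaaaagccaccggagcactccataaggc

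The κB core, a sequence that NF-κB dimers bind, stood within 1 base of the same place in the first 3 genes, from base -78 to -70 before the start in CXCL1 and CXCL3 and from -77 to -69 in CXCL2. In IL8 it stood from -91 to -83. Searched on both strands as GGAATTTCC, it was present in 7 of the 8 promoters and in 0.461% of all 35116 RefSeq promoters of the same length. The motif was picked with the promoters of these genes in mind, so the 7 of 8 is a description. The longer κB consensus, which overlaps the core, was also present in 7 of the 8 and in 11.3% of all promoters. It was present in CCL20 and not in IL8, while the core was present in IL8 and not in CCL20. TGANTCA, the AP-1 motif, was found in IL8 and CXCL11 and in 7.71% of all promoters. TTGCNNAA, a C/EBP motif, was found in CXCL2 and in 10.5% of all promoters. Over the last 110 bases before the start, CXCL1 was 93.7% identical to CXCL2 and 90.0% identical to CXCL3, and CXCL2 was 88.3% identical to CXCL3. Over the last 250 bases, the identity was 71.9% between CXCL1 and CXCL2, 81.4% between CXCL1 and CXCL3 and 71.3% between CXCL2 and CXCL3.

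Chemokine mRNA was dominated by few genes in both groups, and 5 of the 10 genes were expressed: CXCL1, CXCL2, IL8, CCL20 and CXCL3. The summed FPKM of the 10 genes was 360.7 in siNT and 329.0 in siPAX9, a ratio of 0.912. CXCL1 alone made up 56.1% of this sum in siNT and 56.6% in siPAX9. The other 5 genes, CCL2, CCL5, CXCL10, CXCL11 and CXCL5, together measured 1.81 FPKM in siNT and 2.39 FPKM in siPAX9. In siNT the order from high to low was CXCL1, CXCL2, IL8, CCL20, CXCL3, CCL2, CCL5, CXCL10, CXCL11 and CXCL5. In siPAX9 it was CXCL1, IL8, CCL20, CXCL2, CXCL3, CXCL10, CCL5, CCL2, CXCL11 and CXCL5. With no spread known, which neighbours in these orders differ beyond error cannot be said.

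**Figure D1:**
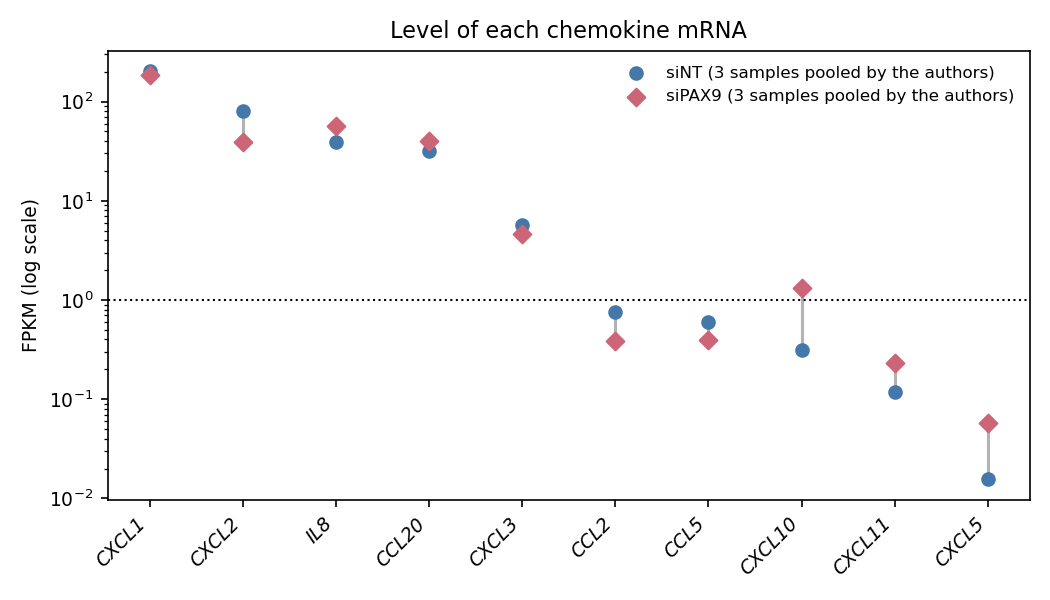
FPKM of each chemokine gene on a log scale (one circle for siNT and one diamond for siPAX9, each the authors' pooled value of 3 samples, without error), ordered by the siNT level, with the dotted line at an FPKM of 1. CXCL1 is highest in both groups at 202 and 186, and CXCL2 takes the second place in siNT and the fourth in siPAX9.

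Of the expressed ELR chemokines, CXCL1, CXCL2 and CXCL3 were lower in siPAX9 and IL8 was higher, and only CXCL2 was past 2-fold. CXCL1 (chromosome 4, 74735109 to 74737179 on hg19) measured 202 FPKM in siNT and 186 FPKM in siPAX9, a log2 ratio of -0.12. In siNT its level was above that of 97.3% of expressed genes. CXCL3 (chromosome 4, 74902312 to 74904490) measured 5.67 FPKM in siNT and 4.65 FPKM in siPAX9, a log2 ratio of -0.29. Both ratios lay within the middle 50% of expressed genes.

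CXCL2 (chromosome 4, 74962754 to 74964997) measured 79.5 FPKM in siNT and 39.0 FPKM in siPAX9, which is 2.04-fold lower. It was the 1 of the 5 expressed chemokine genes past 2-fold, beside the 6.9% of all expressed genes that were lower by as much, and 0 of the 5 were higher by 2-fold, beside 6.82% of all expressed genes. Its log2 ratio was -1.03, and -1.01 with 1 added to both values. Centred on the median of all expressed genes it was -0.96, which is short of 2-fold. The ratio of CXCL1 to CXCL2 was 2.54 in siNT and 4.77 in siPAX9, and that of CXCL2 to CXCL3 was 14.03 in siNT and 8.40 in siPAX9. CXCL2 took 22.0% of the summed chemokine FPKM in siNT and 11.9% in siPAX9.

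IL8 (chromosome 4, 74606223 to 74609463), the neutrophil chemokine whose promoter is printed above, measured 39.5 FPKM in siNT and 56.5 FPKM in siPAX9. Its log2 ratio was 0.52, higher in siPAX9 and short of 2-fold, and above that of 84.2% of expressed genes. CXCL2 thus stood at 2.01 times the level of IL8 in siNT and at 0.69 times its level in siPAX9. CXCL5 (chromosome 4, 74861359 to 74864446), the remaining ELR gene, measured 0.0157 FPKM in siNT and 0.0574 FPKM in siPAX9. These values are far under 1, and its log2 ratio of 1.87 became 0.06 with 1 added to both.

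**Figure D2:**
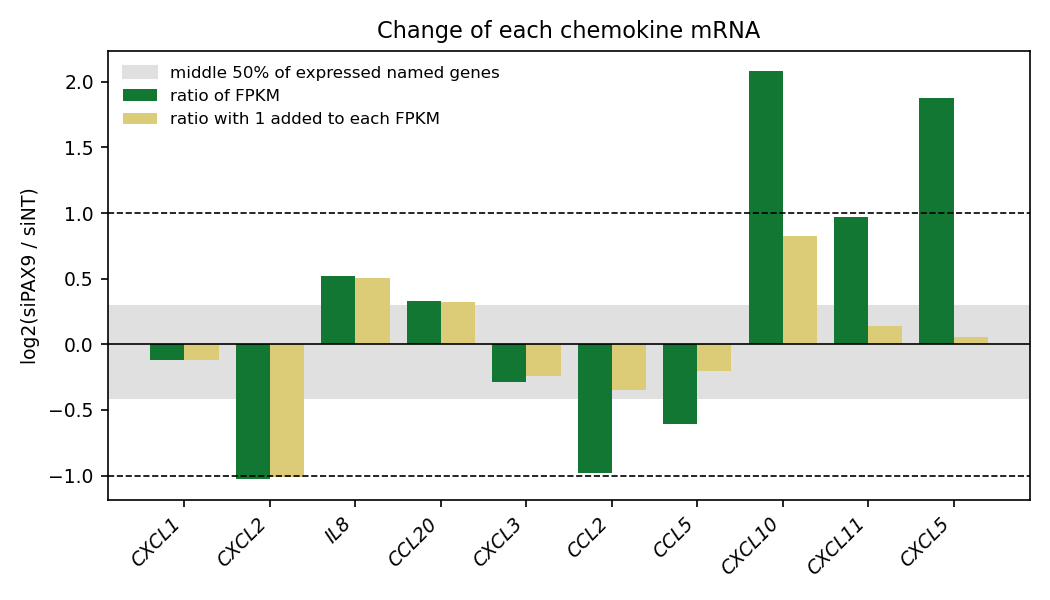
Log2 ratio of siPAX9 to siNT for each chemokine gene, ordered by the siNT level, computed from FPKM (green) and with 1 added to each FPKM (yellow); the grey band holds the middle 50% of expressed named genes, and the dashed lines mark 2-fold. Of the left 5 genes, which are expressed, only CXCL2 reaches a dashed line, and the ratios of the right 5 genes shrink when 1 is added.

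Few stretches of read length were shared between the 3 paralogs. The sequencing reads were 76 bases long, and every 76-base window of each GENCODE canonical transcript was looked up in all other annotated transcripts. In CXCL1, 99.8% of 1099 windows occurred in no other gene, in CXCL2 97.7% of 1040 and in CXCL3 97.8% of 1000. The windows that CXCL2 and CXCL3 shared numbered 22, and CXCL1 and CXCL2 shared 2. These values come from exact matches, so reads with sequencing errors or variants may still be split between the paralogs. The lookup covered annotated transcripts in their own orientation only, not the opposite strand or the rest of the genome. Each of the 3 transcripts has 4 exons.

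Of the 3 CC chemokine genes among the 10, CCL20 was the expressed one. CCL20 (chromosome 2, 228678558 to 228682280), the ligand of CCR6, measured 32.0 FPKM in siNT and 40.2 FPKM in siPAX9, a log2 ratio of 0.33. CCL20 stood below CXCL2 in siNT, where CXCL2 had 2.49 times its level, and close to CXCL2 in siPAX9, where CXCL2 had 0.970 times its level. The ratio of IL8 to CCL20 was 1.24 in siNT and 1.41 in siPAX9.

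CCL2 and CCL5 were near the lower end. CCL2 (chromosome 17, 32582296 to 32584220), the monocyte chemokine, measured 0.758 FPKM in siNT and 0.384 FPKM in siPAX9. Its log2 ratio was -0.98, and -0.35 with 1 added to both. CCL5 (chromosome 17, 34198496 to 34207377) measured 0.605 FPKM in siNT and 0.398 FPKM in siPAX9, a log2 ratio of -0.60 that became -0.20 with 1 added to both. Both genes were lower in siPAX9 and short of 2-fold. In the same lookup, 9.72% of the 76-base windows of the CCL5 canonical transcript also occurred in other genes, against 0% in CCL2.

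The interferon-induced chemokines CXCL10 and CXCL11 were both under the minimum for an expressed gene, and CXCL9, the remaining CXCR3 ligand, was listed at 0 in both groups. CXCL10 measured 0.312 FPKM in siNT and 1.32 FPKM in siPAX9, which is 4.23 times the siNT value. Its log2 ratio was 2.08, and 0.82 with 1 added to both. CXCL11 measured 0.117 FPKM in siNT and 0.230 FPKM in siPAX9, a log2 ratio of 0.97, short of 2-fold, that became 0.14 with 1 added to both and 1.04, past 2-fold, after centring. The mean FPKM of CXCL10 was 0.815, so neither gene entered the count of expressed genes. The deposited table lists both at 1 region of chromosome 4, from 76932333 to 77033955 on hg19. GENCODE places the CXCL10 transcript from 76942271 to 76944650 and that of CXCL11 from 76954835 to 76957223 on GRCh37, both on the minus strand and with 4 exons each. Both overlap ART3 on the opposite strand, which measured 0.0370 FPKM in siNT and 0.0686 FPKM in siPAX9. CXCL5 and CCL5 each overlap a long noncoding RNA without a symbol on the opposite strand. Whether the counting used strand is not given in the sources used here, and without strand the reads of overlapping genes cannot be told apart.

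The sequence before the start of CXCL10 is shown because CXCL10 had the largest ratio of the 10 genes and its promoter held the interferon-stimulated response element, GAAANNGAAA. That motif was found in CXCL10 alone among the 8 promoters and in 3.57% of all promoters. The stretch was picked with both the ratio and the motif in view, and whether the motif bears on the level was not tested. The stretch is chr4:76023498-76023722 (minus strand) on GRCh38.p14, and the capitals mark, from left to right, the interferon-stimulated response element and 2 matches to the κB consensus.
CXCL10: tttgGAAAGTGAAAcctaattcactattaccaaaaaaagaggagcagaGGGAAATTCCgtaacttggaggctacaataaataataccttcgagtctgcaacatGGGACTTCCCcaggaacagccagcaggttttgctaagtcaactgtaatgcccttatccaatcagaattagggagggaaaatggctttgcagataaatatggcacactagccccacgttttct

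**Figure D3:**
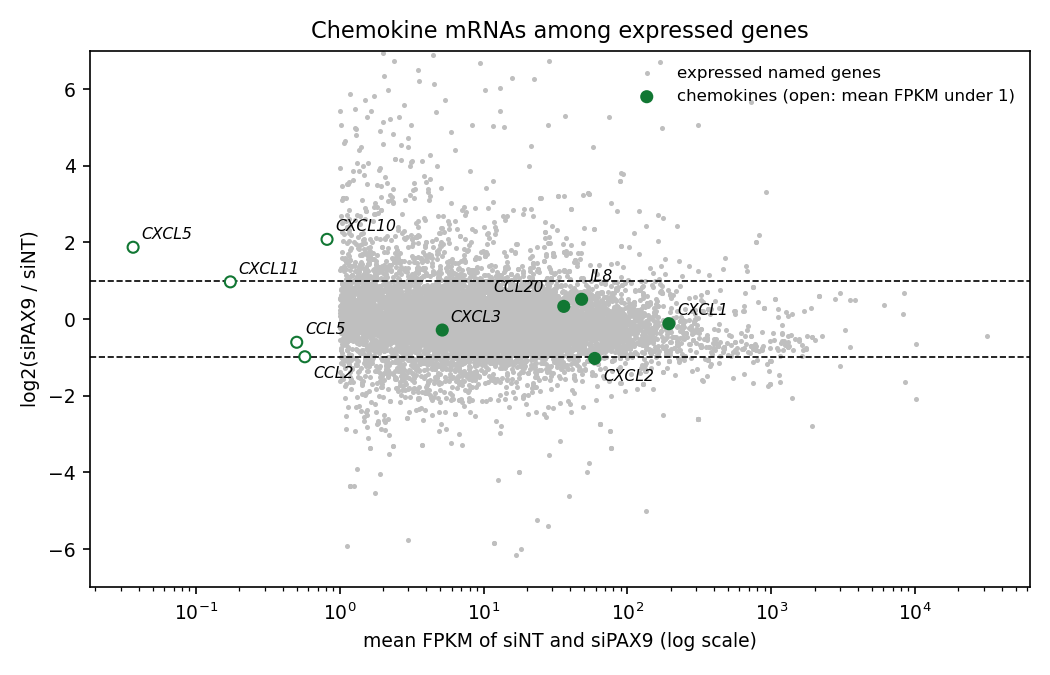
Mean FPKM of both groups (log scale) against the log2 ratio of siPAX9 to siNT for expressed named genes (grey) and the 10 chemokine genes (green, open where the mean FPKM is under 1), with dashed lines at 2-fold. The 5 expressed chemokines lie between -1.03 and 0.52; 119 expressed genes listed at 0 in one group and 15 genes with a log2 ratio beyond 7 in either direction are not drawn.

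Of the 29 other chemokine genes looked up, 2 were expressed. Of these 2, CCL28 was higher by 2-fold or more, beside 6.82% of all expressed genes. CCL28, a mucosal epithelial chemokine, measured 1.73 FPKM in siNT and 12.5 FPKM in siPAX9, a log2 ratio of 2.85. CXCL16, a chemokine that is made as a membrane protein, measured 9.57 FPKM in siNT and 14.9 FPKM in siPAX9, a log2 ratio of 0.64 and short of 2-fold. Of the other 27, 14 were listed at 0 in both groups, and the highest FPKM among the 27 was 0.494. Between IL8 and CXCL2 on chromosome 4 lie CXCL6, PF4V1, PF4 and PPBP, and none of these 4 had an FPKM over 0.0383 in either group.

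**Figure D4:**
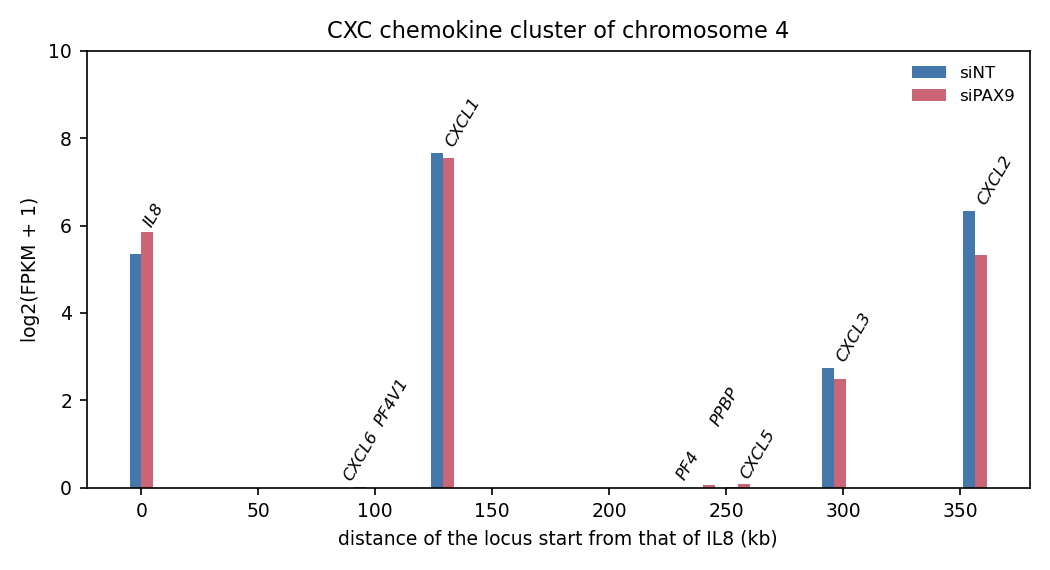
Level of 9 CXC chemokine genes of chromosome 4 as log2(FPKM + 1), with a bar for siNT and one for siPAX9 (pooled values, no error), placed at the distance of each locus start from that of IL8 in kb. IL8, CXCL1, CXCL3 and CXCL2 are the genes with visible bars, and CXCL6, PF4V1, PF4, PPBP and CXCL5 between them are at or near 0.

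Of the receptors of the ELR chemokines, CXCR1 was expressed and past 2-fold. CXCR1, which binds IL8, measured 35.8 FPKM in siNT and 0.562 FPKM in siPAX9, a log2 ratio of -5.99, or -4.56 with 1 added to both. CXCR2 measured 1.10 FPKM in siNT and 0.0808 FPKM in siPAX9, and its mean was under 1. Its log2 ratio of -3.77 became -0.96 with 1 added to both, which is short of 2-fold. Of the 23 receptor genes looked up, 3 were expressed. CXCR1 and ACKR1, a decoy receptor that binds ELR and CC chemokines (1.43 in siNT and 0.683 in siPAX9), were lower by 2-fold or more. CXCR4 measured 3.08 FPKM in siNT and 3.38 FPKM in siPAX9. With 1 added to both values, or after centring, ACKR1 was short of 2-fold. CXCR1 and ACKR1 were both under 1 FPKM in siPAX9 and reached the minimum through siNT alone, so their count, beside 6.9% of all expressed genes, is a description. CCR6 and CXCR3, the receptors of CCL20 and of CXCL10 and CXCL11, had an FPKM of at most 0.066 in either group.

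Cytokines that induce or accompany chemokines differed in both directions. Of 21 looked up, 9 were expressed, 2 of them lower and 1 higher by 2-fold or more, beside 6.9% and 6.82% of all expressed genes. These 3 genes were under 1 FPKM in the lower group and reached the minimum through the other group alone, so the count is a description. IL6 measured 3.61 FPKM in siNT and 0.22 FPKM in siPAX9, a log2 ratio of -4.04. LTB, which encodes lymphotoxin beta, had 2.70 in siNT and 0.382 in siPAX9, a log2 ratio of -2.82. IL11 was higher, at 0.557 in siNT and 1.63 in siPAX9, and short of 2-fold with 1 added to both. The interleukin 1 genes, IL1A with 59.5 in siNT and 95.6 in siPAX9 and IL1B with 12.6 and 24.7, were higher and short of 2-fold, and IL1B was past it after centring on the median of expressed genes. TNF was under the minimum in the row kept, with 0.0914 in siNT and 0.177 in siPAX9. TNF and LTB had 8 rows each, of which the highest was used, and their summed level is not given here.

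Of the genes of NF-κB signalling, 1 was past 2-fold, beside 13.7% of all expressed genes. Of 20 expressed receptors and adaptors upstream of NF-κB, 0 were past 2-fold, with log2 ratios from -0.77 to 0.78 and a median of -0.02. Of the 10 NF-κB subunits and kinases, 0 were past 2-fold, with log2 ratios from -0.77 to 0.41. Of 16 expressed inhibitors and feedback targets, CYLD, a deubiquitinase that limits NF-κB signalling, was past 2-fold, with 8.65 FPKM in siNT and 17.8 FPKM in siPAX9, and short of it with 1 added to both. The list had a median log2 ratio of -0.14, with 7 genes above 0 and 9 below. NFKBIA, which encodes the inhibitor IκBα, measured 216 FPKM in siNT and 131 FPKM in siPAX9, a log2 ratio of -0.71, and BIRC3 had 122 in siNT and 223 in siPAX9, a log2 ratio of 0.87.

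Of the 18 interferon signalling genes, all expressed, 4 were higher and 2 were lower by 2-fold or more, beside 6.82% and 6.9% of all expressed genes. SOCS1 was under 1 FPKM in siNT and reached the minimum through siPAX9 alone. The list was also chosen with earlier results of these data known, so the count is a description. IRF7, a transcription factor of the interferon response, measured 1.73 FPKM in siNT and 8.28 FPKM in siPAX9, a log2 ratio of 2.26. SOCS1 had 0.506 in siNT and 2.41 in siPAX9, IRF9 had 14.04 and 29.4, and GBP1 had 4.89 and 9.80. With 1 added to both values, GBP1 was short of 2-fold and the other 3 were past it. The row of IRF9 is shared with another symbol. The lower genes were SOCS3, a feedback inhibitor of cytokine signalling, with 21.0 in siNT and 3.32 in siPAX9, and IFNGR2, a chain of the interferon gamma receptor, with 99.5 in siNT and 35.4 in siPAX9. IFNB1 measured 0.055 FPKM in siNT and 0.057 FPKM in siPAX9, and IFNG was listed at 0 in both groups. The median log2 ratio of the 18 genes was 0.03.

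Of the 11 factors that govern the decay of AU-rich mRNAs, such as chemokine mRNAs, 0 were past 2-fold, beside 13.7% of all expressed genes, with log2 ratios from -0.82 to 0.70 and a median of -0.11, beside -0.07 for all expressed genes. ZFP36, which encodes tristetraprolin, measured 55.6 FPKM in siNT and 43.3 FPKM in siPAX9. ZC3H12A, which encodes the endonuclease Regnase-1, had 64.7 in siNT and 45.1 in siPAX9, in a row it shares with another symbol.

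**Figure D5:**
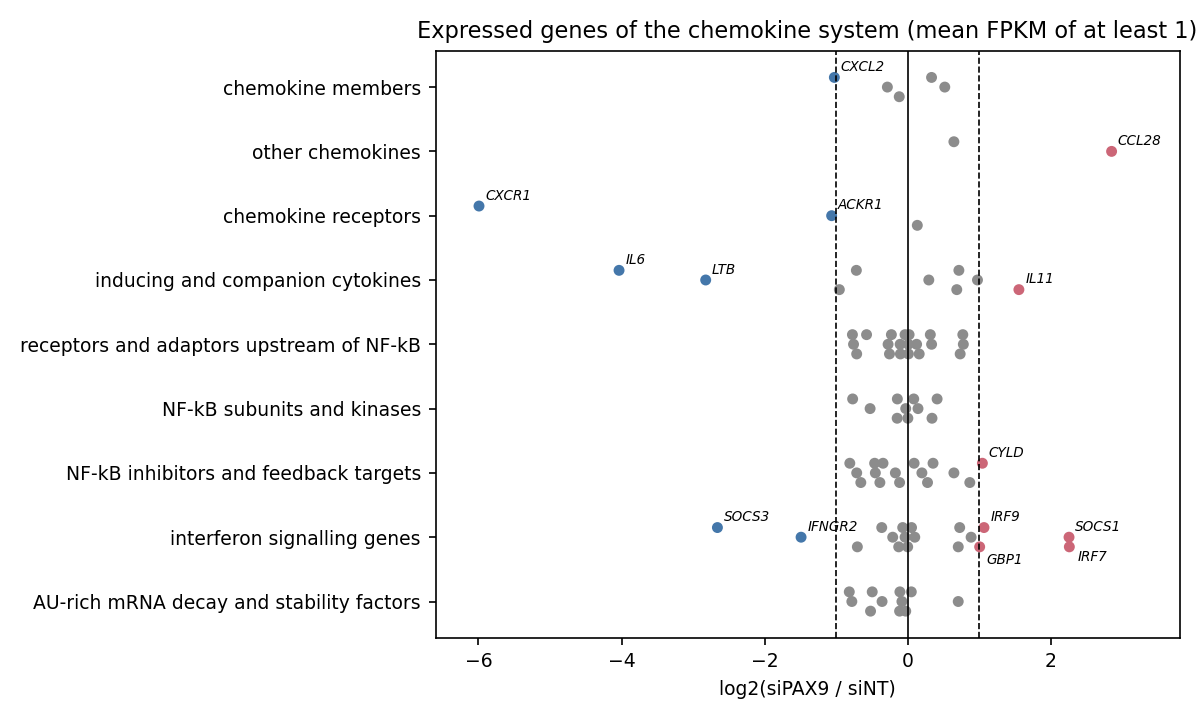
Log2 ratio of siPAX9 to siNT for each expressed gene of the chemokine system, 1 row of points per list (points are spread vertically only to separate them), with dashed lines at 2-fold; genes past 2-fold are blue where lower in siPAX9 and red where higher, and are named. The lists of NF-κB subunits and kinases, of upstream adaptors and of decay factors have 0 genes outside the dashed lines, while CXCR1 and IL6 lie at -5.99 and -4.04.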

How the data were processed

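Poly(A)+ libraries of 3 siNT and 3 siPAX9 samples were sequenced from one end by the authors. They used Bowtie 2 for alignment to UCSC hg19 and Cufflinks for quantification, both run in Partek Flow. The deposited table gives 1 FPKM per group and locus, made by the authors from the 3 samples of the group. How the libraries were normalized is not given in the sources used here. Its fold changes, test statistics, p-values, q-values and call columns hold the authors' own comparison and were not used. The table holds no library sizes, and the range of total reads in the study's methods was not used here.

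Rows were split at commas into symbols, and the row with the highest mean FPKM was kept for each symbol. The log2 ratio of siPAX9 to siNT was computed without and with 1 added. A gene was expressed at a mean FPKM of at least 1 and counted at 2-fold, the fold threshold of the study's methods. The calls were tested on simulated data. Named genes were the 10 chemokines, PAX9 and, from each list, up to 5 expressed genes past 2-fold. GBP1, past that limit of 5 in its list, and other genes named for their role were chosen after their values were seen. Members and lists were chosen with earlier results of these data known. Locus starts in the table count from 0 and are given here from 1. All 10 loci overlapped their GENCODE (release 44 lifted to GRCh37) transcript. Promoters were RefSeq sequences on GRCh38.p14, aligned globally with Biopython 1.88. Tables were made with Python 3.11.15, numpy 2.4.6 and pandas 2.3.3, and plots with matplotlib 3.10.9.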

Additional observations from a re-analysis of the deposited data

How the results depend on the processing

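With 1 pooled value per group, no replicate could be left out and no paired analysis was possible because the table carries no sample numbers. The count of 1 expressed chemokine gene lower by 2-fold or more was 0 at a fold of 4 and 0 after centring on the median of expressed genes, where CXCL2 had a log2 ratio of -0.96. Centring also took CXCL11, under the minimum FPKM, to 1.04, past 2-fold. The count of 0 higher genes was 2 with no minimum FPKM, CXCL10 and CXCL5. The median log2 ratio of the 5 expressed genes, -0.12, was 0.11 over all 10 genes with no minimum FPKM and -0.0495 after centring. The other alternatives (1 or 0.1 added, a fold of 1.5, a mean FPKM of at least 5, rows of a symbol summed, rows with several symbols left out) gave the same counts and the same median to 2 decimals. Of 56 counts over the other lists under 2 alternatives, 8 moved by over 1.5 times. Many of the 56 were 0 in the main setting and stayed 0, so the 8 of 56 does not measure how stable the calls are. The FPKM of CXCL5, CXCL10, CXCL11, CCL2 and CCL5 are low, and the unknown number of reads behind them limits their ratios.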

Other observations

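The 3 genes of the chemokine system that were above an FPKM of 1 in 1 group and had a mean under 1 were CXCL10, CXCR2 and IL36G, picked out after their values were seen. IL36G, an interleukin 1 family cytokine of epithelia, measured 0.0609 FPKM in siNT and 1.31 FPKM in siPAX9. CXCR2 had 1.10 in siNT and 0.0808 in siPAX9.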
